A study of Homo sapiens with 82 samples.

Results

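Acetylation of lysine 27 of histone H3 (H3K27ac) was mapped by ChIP-seq in HT29 cells, an established human colorectal adenocarcinoma line, after 48 h of treatment with GW3965 at 10 µM and in cells given the carrier DMSO alone. The comparison rests on 4 of the 82 samples of the series, 2 libraries of each condition. Its members are the sites at which any of the 4 libraries had a called peak, 36488 sites in all, where a site is the merged span of peaks that overlap by at least 1 bp. The labels give the control libraries no time point. Before treatment the cells were held in medium with charcoal-treated serum. The files used as annotation hold peaks of the liver X receptors LXRB (2 h and 48 h of GW3965) and LXRA (the same times, from HT29 cells carrying a FLAG-tagged LXRA transgene and pulled down through the tag), of JunD in DMSO, of PPARG after rosiglitazone at 10 µM (2 h and 48 h) and of RNA polymerase II (RNAP2) in DMSO and after 24 h and 48 h of GW3965 or rosiglitazone.

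H3K27ac lies on the nucleosomes that flank active promoters and enhancers, and its gain or loss is read as a change in the activity of a regulatory element. LXRA (NR1H3) and LXRB (NR1H2) are nuclear receptors for oxysterols that bind DNA with RXR. GW3965 is a synthetic agonist of both. They are known for switching on genes of cholesterol efflux and lipid synthesis. JunD is a subunit of AP1, a factor that occupies many enhancers, and RNAP2 marks promoters and active enhancers. In bulk chromatin, a change in the share of cells that carry the mark and a change in the mark per cell cannot be told apart. RNA-seq libraries of the same line at 48 h (4 DMSO and 4 GW3965) carried all 8 colon epithelial markers examined, with a summed level of 15650 to 18830 CPM (counts scaled to the library total). The defining markers of other cell types were at or near 0 (DCN at most 0.135, PTPRC at most 0.112, ALB at most 0.0449 and PECAM1 at 0), and 1 marker each of the fibroblast and leukocyte lists, COL1A1 and CD68, was found at 4.87 to 8.54 and 6.90 to 16.6.

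The 4 libraries did not separate by treatment in the amount of H3K27ac called. DMSO replicate 1 had 23015 peaks over 49.4 Mb and DMSO replicate 2 had 27701 peaks over 67.9 Mb. GW3965 replicate 1 had 31824 peaks over 73.1 Mb and GW3965 replicate 2 had 27456 peaks over 65.0 Mb. The groups overlapped, and the exact two-sided permutation test over libraries gave p = 0.667 for both measures, in a design whose smallest p is 0.333. Peak score, which is 10 times the negative log10 of the peak caller's p-value, had medians of 276 and 380 in DMSO and 373 and 257 with GW3965 (exact permutation p = 0.667). It rises with sequencing depth as well as with enrichment. Score changes across kept sites were therefore taken after quantile scaling or as ratios within a library. Scores of single sites and of site classes are given unscaled, so their differences between libraries can also reflect depth. The file headers name 1 input library for both DMSO H3K27ac libraries and another for both GW3965 48 h libraries, so the input and the treatment cannot be told apart.

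GW3965 replicate 2 stood apart from the other 3 libraries. Over the 16377 sites with a peak in all 4, the log2 scores of the DMSO replicates correlated with Pearson's r = 0.84. GW3965 replicate 1 correlated with them at 0.69 and 0.75, above its correlation of 0.60 with its own replicate. GW3965 replicate 2 correlated with the DMSO libraries at 0.52 and 0.35. These are correlations across sites, which are not independent, and libraries of 1 condition share an input. The same picture held over the 13455 sites with a peak in all 10 H3K27ac libraries of the series, where GW3965 replicate 2 was closest to replicate 2 of the 24 h GW3965 treatment (Spearman 0.65), and DMSO replicate 2 to replicate 1 of that treatment (0.88). The 4 rosiglitazone libraries correlated with each other at 0.77 to 0.89. Whether any library was exchanged with another cannot be read from these files and was not tested, and the kept, gained and lost classes take the labels as given.

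**Figure D1:**
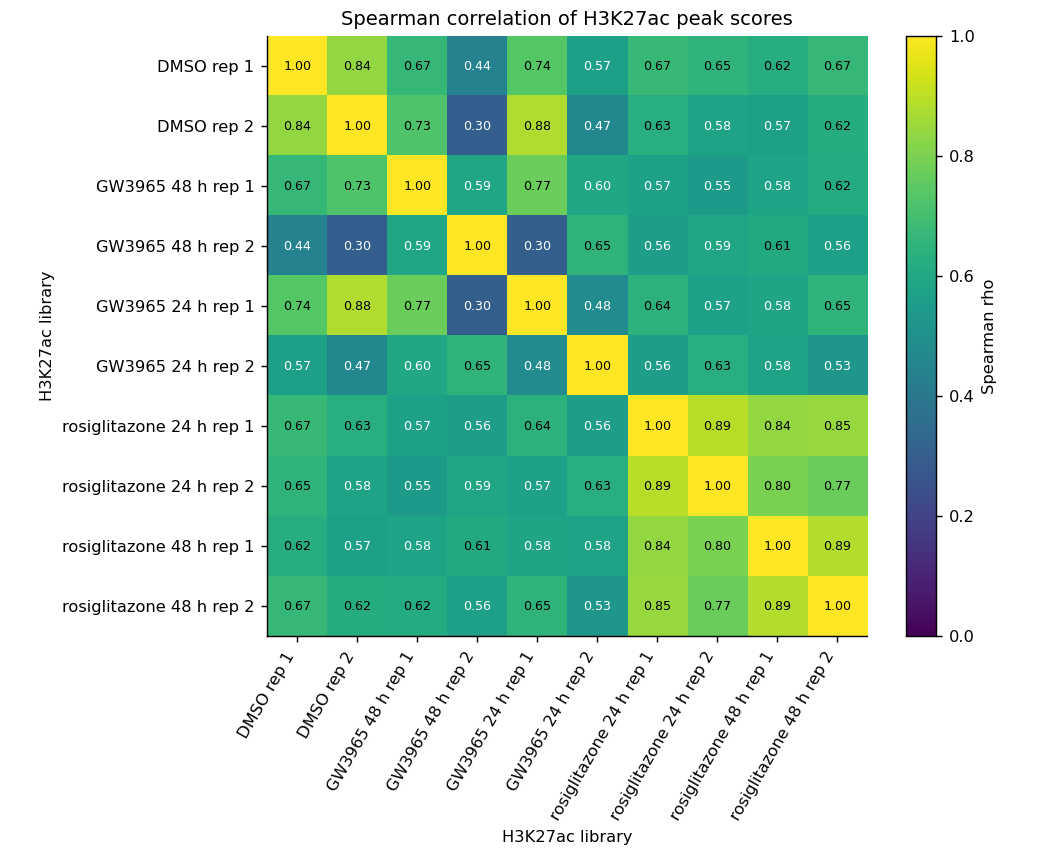
Spearman correlation of peak scores between the 10 H3K27ac libraries, over the 13455 sites with a peak in every library; both axes list the libraries and the colour gives rho. GW3965 48 h replicate 2 had its lowest values, 0.30, with DMSO replicate 2 and with GW3965 24 h replicate 1, and the 4 rosiglitazone libraries form the block of high values at the lower right.

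Most sites that were called reproducibly in DMSO were also called with GW3965. Of the 36488 sites, 16377 had a peak in all 4 libraries (44.9%, 95% Wilson interval 44.4 to 45.4, which like all such intervals here covers counting error only). These are called kept sites. A further 3029 sites (8.30%, 8.02 to 8.59) had a peak in both GW3965 libraries and in neither DMSO library and are called gained, and 399 (1.09%, 0.992 to 1.21) showed the opposite pattern and are called lost. The remaining sites were discordant between replicates: 3102 were found in GW3965 replicate 1 alone, 2835 in GW3965 replicate 2 alone and 2354 in DMSO replicate 2 alone, whereas DMSO replicate 1, the library with fewest peaks, had 171 sites of its own. Each GW3965 library thus had about as many sites of its own as both shared without DMSO.

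**Figure D2:**
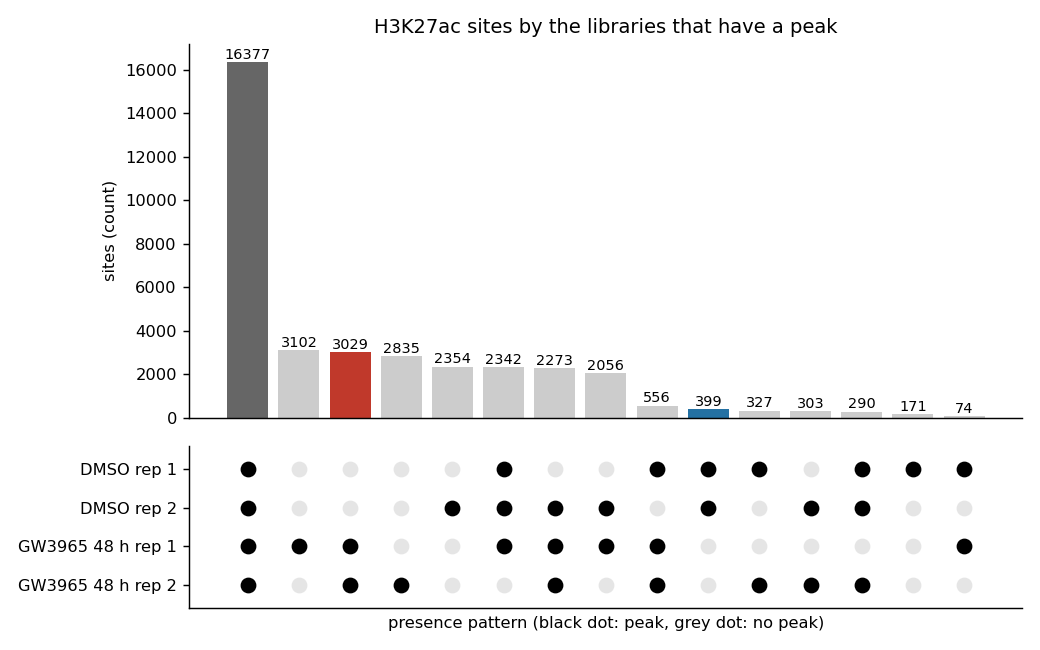
Number of H3K27ac sites (vertical axis, count) by presence pattern, with black dots below each bar for libraries with a peak and grey dots for those without; the grey bar is kept, red gained and blue lost. The 3029 gained sites fall between the 3102 and 2835 sites found in 1 GW3965 library alone, and the 399 lost sites rank well below the 2354 found in DMSO replicate 2 alone.

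Gained sites outnumbered lost sites under each way of counting, but the excess depended on the number of peaks per library. With the same number of highest-scoring peaks taken from every library, 1646 sites were gained and 1046 lost. With peaks of score 200 or more, the counts were 2085 and 239. Without GW3965 replicate 2 they were 6433 and 702, without GW3965 replicate 1 5973 and 2820, without DMSO replicate 1 3593 and 2765, and without DMSO replicate 2 5369 and 589.

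Gained sites were weaker and narrower than kept sites. Their median score was 187 in GW3965 replicate 1 and 176 in GW3965 replicate 2, against 754 and 363 at kept sites in the same libraries. The lower of the 2 scores had a median of 145 and reached 200 at 705 gained sites (23.3%) and 300 at 201 sites. For 801 gained sites (26.4%) the lower score was under 120, close to the smallest score that the files hold, 100. Just outside the rule, sites called in GW3965 replicate 1 alone had a median score of 133 and those in GW3965 replicate 2 alone 138. Median site width was 1575 bp at gained and 2931 bp at kept sites. A kept site lay within 10 kb of 998 gained sites (32.9%), and the median distance to the nearest kept site was 22010 bp. Another gained site lay within 10 kb for 481 of them (15.9%), with at most 3 such neighbours.

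The gained sites were spread over all 23 chromosomes examined, with few on the gene-dense chromosomes. Chromosomes 16, 17, 19 and 22 together held 6.80% of gained sites (5.96 to 7.75), 15.4% of kept sites (14.8 to 15.9) and 17.5% of lost sites (14.1 to 21.6). Chromosome 19 alone held 33 gained sites, 1.09% (0.777 to 1.53), against 4.37% of kept sites. This distribution moved with GW3965 replicate 2. Of all its peaks, 3.29% lay on chromosome 19, against 4.39% in GW3965 replicate 1 and 4.74% and 5.13% in DMSO. Sites found in GW3965 replicate 2 alone had 0.212% on chromosome 19, and sites found in GW3965 replicate 1 alone had 3.90%. Sites with a peak in every library but GW3965 replicate 2 had 9.78%. The part of that library in the make-up of the gained class was not tested.

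The 6 gained sites with the highest lower score all had LXRA peaks in both 2 h libraries. The top site, chr13:95896845-95902212 in hg19, scored 1481 and 1357 in the GW3965 replicates. It had no peak in either DMSO library or in 24 h GW3965 replicate 1, scored 253 in 24 h GW3965 replicate 2, and had peaks in 3 of the 4 rosiglitazone libraries, at 113 to 306. LXRA scores there were 3100 and 2683 at 2 h and 942 and 1369 at 48 h. RNAP2 scored 431 and 583 in the GW3965 48 h libraries, and in DMSO a peak was called in replicate 2 only, at 147. Both marks were thus higher in both 48 h libraries at this site.

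The second site, chr7:27643275-27647459, scored 961 and 1517 for H3K27ac with GW3965 at 48 h and 453 and 286 at 24 h. All 4 LXRA libraries scored 3100 there and the LXRB libraries scored 398 and 484 at 48 h. RNAP2 scored 234 and 219 there in DMSO and 580 and 807 at 48 h, groups of unscaled scores that did not overlap. The same site had H3K27ac peaks in all 4 rosiglitazone libraries, at 180 to 426. It was thus called in all 8 treated H3K27ac libraries and in neither DMSO library. A score of exactly 3100 recurred across libraries and sites, so equal scores of 3100 need not mean equal enrichment.

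The third site, chr6:144064321-144068063, scored 1078 and 841 for H3K27ac, and differed from the first pair in its receptors and polymerase. It carried PPARG peaks in all 4 libraries, at 913 to 1955, and H3K27ac in all 4 rosiglitazone libraries, at 303 to 856. RNAP2 scored 308 and 348 in DMSO and 179 and 197 with GW3965 at 48 h, the reverse of its H3K27ac pattern. The fourth site, chr18:55951810-55955755, scored 767 and 1500 at 48 h and 121 and 1340 at 24 h, so the replicates differed widely at both times, and 465 to 771 in the rosiglitazone libraries. The fifth, chr11:87449455-87454376, scored 727 and 737, and had a rosiglitazone peak in 1 library, at 103. The sixth, chr1:95548546-95551548, scored 690 and 944, carried LXRB peaks of 668 and 693 at 48 h, and scored 310 to 599 in the rosiglitazone libraries. RNAP2 had no DMSO peak at the chromosome 18 and chromosome 11 sites and scored 203 to 281 there in the 48 h libraries, while at the chromosome 1 site it went from 255 and 230 to 375 and 381.

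The widest gained site, chr13:97772576-97779111, spanned 6536 bp and scored 426 and 494 with GW3965. The next 2 by width lay on chromosome 8 and spanned 6409 and 6385 bp, with scores of 252 and 135 at the first and 249 and 439 at the second. RNAP2 was called in every library at the chromosome 13 site, at 210 and 366 in DMSO and 228 and 295 with GW3965 at 48 h, which overlap.

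Lost sites were few and weak. Their median scores were 128 in DMSO replicate 1 and 205 in DMSO replicate 2, against 357 and 703 at kept sites. The lower score reached 200 at 24 sites and 300 at 3, and was under 120 at 171 (42.9%). The highest was chr20:42938288-42940523, at 383 and 708, and the next were chr15:40659453-40661353 at 341 and 499, and chr2:131554898-131556030 at 315 and 489. Each of these 3 sites had a peak in 24 h GW3965 replicate 1, at 435, 259 and 272, and none in 24 h GW3965 replicate 2. The site chr6:35419836-35421230 scored 333 and 300, chr17:79987948-79989485 scored 296 and 401, and chr1:79084692-79087402 scored 276 and 573. The chromosome 1 site differed from the other 5 in having strong peaks in the 24 h rosiglitazone libraries, at 593 and 829.05. No lost site with a lower score of 200 or more had an LXRA 2 h or JunD peak found in both libraries (0 of 24, which at 3 counts allows up to 12.5%).

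At kept sites, no change in score or width passed the test across sites. The limma test on quantile-scaled log2 scores called 0 sites higher and 0 lower of 16377 (percent called 0), with a smallest adjusted p of 0.193. At an unadjusted p under 0.05 there were 1406 sites higher and 1430 lower. For covered width, limma also called 0 sites in each direction, with 570 wider and 268 narrower at an unadjusted p under 0.05. The median absolute log2 difference was 0.54 between group means, which average 2 libraries each, and between single libraries it was 0.60 for the GW3965 replicates and 0.35 for the DMSO replicates. This result rested on single libraries. Without GW3965 replicate 1 the same test called 3703 sites, and without GW3965 replicate 2 it called 118, the lone library being assumed to vary like the others.

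As a description, kept sites were counted on the quantile-scaled values, with means taken on the log2 scale. At 1653 sites both GW3965 scores lay above both DMSO scores with at least a 2-fold difference in means (10.1% of those tested). The opposite held at 1603 (9.79%). For width at a 1.5-fold difference these were 407 (2.49%) and 196 (1.2%). The number of peaks within kept sites hardly differed by treatment: 13013 (79.5%) had 1 peak in every library, 97 had 1 peak in both DMSO libraries and several in both GW3965 libraries, and 114 the reverse.

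The kept sites with the widest gap between the groups, chosen after their values were seen, show how large single differences were. At chr1:228983420-228989356 the DMSO scores were 101 and 152 and the GW3965 scores 1732 and 948, a scaled log2 difference of 3.38 ± 0.45 (SE; limma adjusted p = 0.193). At chr14:76287025-76290441 they were 108 and 114 against 1328 and 766, and at chr2:73209586-73214403 105 and 118 against 1495 and 525. All 3 had LXRA 2 h peaks in both libraries, the second at 3118 and 1644. In the other direction, chr9:74375090-74385212 scored 1900 and 3115 in DMSO and 709 and 213 with GW3965, a difference of -2.91 ± 0.38 (adjusted p = 0.193). The site chr9:117157408-117161138 went from 532 and 1288 to 219 and 113, and chr4:40334602-40337866 from 476 and 838 to 169 and 104. RNAP2 at the chromosome 4 site was found in both DMSO libraries, at 487 and 324, and in no GW3965 library. The groups did not overlap at any of these 6 sites, as their choice ensured.

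Over all 4 libraries, each receptor coincided with a larger share of kept than of lost sites, and the receptors differed in how near the gained sites came to the kept ones. Peaks found in both LXRB libraries at 48 h (9218 sites) overlapped 30.0% of kept sites (29.3 to 30.7), 12.4% of gained sites (11.3 to 13.6) and 10.3% of lost sites (7.67 to 13.6). At 2 h, with 3881 LXRB sites, the shares were 14.8%, 5.68% and 2.26%. LXRA at 2 h (18389 sites) gave the same order with nearly equal shares of kept and gained sites: 42.4% of kept (41.6 to 43.2), 40.9% of gained (39.2 to 42.7) and 11.5% of lost sites (8.76 to 15.0). By 48 h of treatment LXRA peaks overlapped 42.9% of kept, 27.4% of gained and 17.04% of lost sites. Kept sites were wider, so the shares were also taken over a fixed length. In a 1 kb window around each centre, LXRA 2 h peaks met 37.1% of kept, 40.4% of gained and 11.3% of lost sites, and LXRB 48 h peaks met 25.7%, 12.1% and 10.0%.

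LXRA overlap rose with the strength of the gained site. Among gained sites whose lower GW3965 score was under 150, 33.1% of 1626 carried an LXRA 2 h peak (30.9 to 35.5). The share was 41.8% of 698 from 150 to 200, 55.4% of 504 from 200 to 300, and 64.7% of 201 at 300 or more (57.9 to 71.0). Kept sites in the same score ranges had 25.0%, 29.4%, 33.0% and 52.0%. For LXRA at 2 h, gained sites thus had the larger share in each range. For LXRA at 48 h, gained sites had 21.96%, 28.5%, 37.5% and 42.8%, against 27.3%, 30.3%, 32.9% and 52.2% of kept sites. At 48 h the share of gained sites was thus the larger only from 200 to 300. Among gained sites, PPARG at 2 h of rosiglitazone also rose, with 19.9%, 24.1%, 29.8% and 33.3%. Kept sites had 17.6%, 20.4%, 22.5% and 36.4% with PPARG, the larger share only at 300 or more. For LXRB at 48 h the shares of gained sites were 9.59%, 12.5%, 16.5% and 24.9%, below the 16.8%, 19.1%, 21.3% and 38.0% of kept sites. The shares of the receptors rested on GW3965 replicate 2. Without it, LXRA at 2 h met 38.8% of kept, 29.5% of gained and 23.9% of lost sites. The order of gained and lost sites turned over without that library for LXRA at 48 h (20.4% and 29.3%), for LXRB at 48 h (8.38% and 15.4%) and for LXRB at 2 h (3.47% and 6.98%). For LXRB at 48 h it also turned over without GW3965 replicate 1 (10.6% and 13.1%). Sites found in GW3965 replicate 2 alone had 33.1% with an LXRA 2 h peak, and those in GW3965 replicate 1 alone 18.02%. Sites in DMSO replicate 2 alone had 9.39% and sites in DMSO replicate 1 alone 25.1%. Without GW3965 replicate 1 the LXRA 2 h share among gained sites was 37.0%. LXRA was measured from a transgene, and native LXRA binding was not measured in these files.

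**Figure D3:**
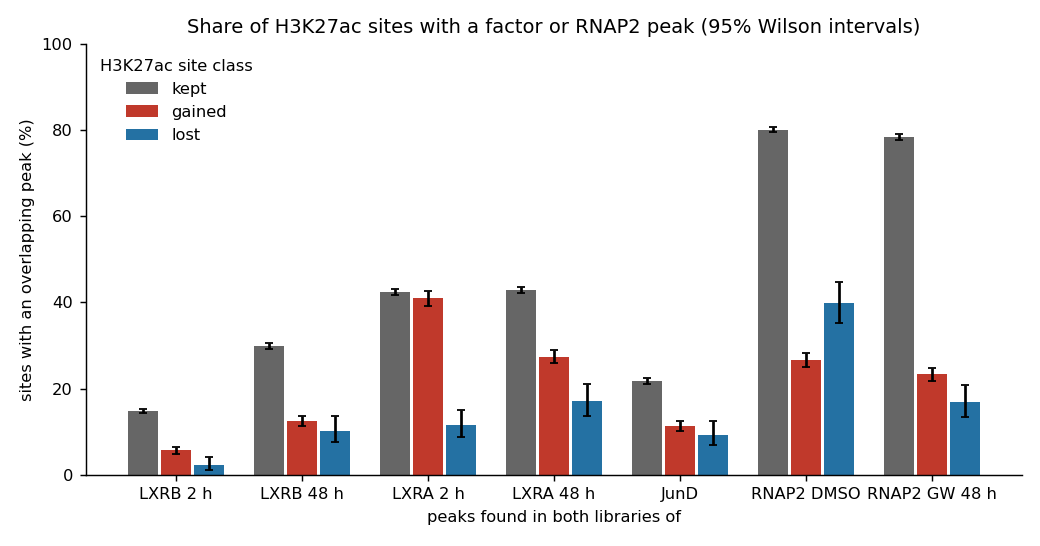
Share of kept (grey), gained (red) and lost (blue) H3K27ac sites that overlap a peak found in both libraries of each factor or of RNAP2 (vertical axis, percent), with 95% Wilson intervals as error bars. LXRA at 2 h meets nearly equal shares, 42.4% of kept and 40.9% of gained sites. LXRA at 48 h (42.9% and 27.4%), LXRB, JunD and RNAP2 meet a smaller share of gained than of kept sites.

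The 4 strongest gained sites with LXRB peaks in both 48 h libraries included the chromosome 7 and chromosome 1 sites above. The next, chr9:107722812-107724787, scored 737 and 656 for H3K27ac with GW3965 and had no DMSO peak. Among these 4 sites it had the highest LXRB scores, 1324 and 1299 at 2 h and 1120 and 694 at 48 h, and LXRA scored 1522 to 3092. It was already called in both 24 h GW3965 libraries, at 557 and 462, and had no RNAP2 peak in DMSO but scores of 292 and 394 at 48 h and 222 and 359 at 24 h. H3K27ac was also called there in all 4 rosiglitazone libraries, at 155 to 524, and RNAP2 in 3 of those 4, at 127 to 265. Both were thus found after either agonist and in no DMSO library. The remaining site, chr3:153865080-153867664, scored 817 and 609, with no peak in any rosiglitazone library, LXRB at 157 and 136 and LXRA at 1904 to 3100. RNAP2 there scored 157 and 177 at 48 h and was not called in DMSO.

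Among lost sites with LXRB at 48 h, the strongest was the chromosome 20 site above, with LXRB at 164 and 153. At chr7:128527744-128534642 the DMSO scores were 239 and 405 over a site of 6899 bp, LXRB scored 138 and 103, and RNAP2 was called in DMSO at 196 and 414 and in no GW3965 library. The site chr7:1584940-1586563 differed from these in carrying very strong LXRB (1557 and 3233) and RNAP2 (2814 and 3100 in DMSO, 3100 in both 48 h libraries), while its H3K27ac went from 194 and 364 to no call. The fourth, chr12:27701014-27703872, scored 173 and 259. RNAP2 there went from 258 and 350 in DMSO to no peak at 48 h.

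Within each library, kept sites with receptor peaks were compared with kept sites without, a ratio that needs no scaling between libraries. For LXRA at 2 h the ratio of median scores was 1.001 and 0.819 in the DMSO replicates and 1.21 and 1.71 in the GW3965 replicates, so the groups did not overlap. For LXRB at 48 h it was 1.39 and 1.38 in DMSO and 1.45 and 1.64 with GW3965, and for LXRB at 2 h 1.37 and 1.25 against 1.43 and 1.85. In each case both GW3965 values lay above both DMSO values, with the larger gap in GW3965 replicate 2, and 2 libraries against 2 cannot give an exact permutation p under 0.333. This order was not particular to LXRA and LXRB. For PPARG at 2 h of rosiglitazone the ratio was 1.002 and 0.856 in DMSO and 1.16 and 1.65 with GW3965. For PPARG at 48 h it was 1.04 and 0.867 against 1.14 and 1.72. For RNAP2 in DMSO the order was reversed, at 1.97 and 2.14 against 1.60 and 1.56. The other H3K27ac libraries did not set GW3965 apart. The LXRA 2 h ratio was 0.876 and 1.40 in the 24 h GW3965 libraries and 1.28 to 1.39 in the 4 rosiglitazone libraries. Kept sites 2000 to 4000 bp wide gave lower ratios for LXRA at 2 h, of 0.713 and 0.526 in DMSO and 0.867 and 1.37 with GW3965, still without overlap. In that width range the LXRB 48 h ratios were 0.975 and 0.882 in DMSO and 1.04 and 1.25 with GW3965. For LXRB at 2 h they were 0.978 and 0.798 against 0.980 and 1.41, so GW3965 replicate 1 lay barely above DMSO replicate 1.

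**Figure D4:**
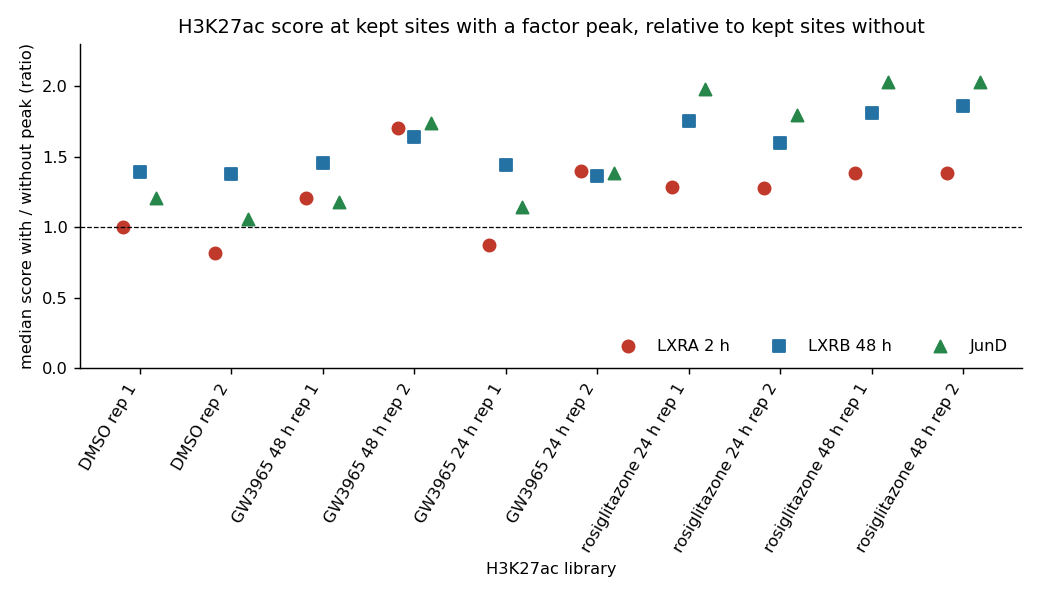
Median H3K27ac score at kept sites with a factor peak divided by that at kept sites without (vertical axis, ratio; dashed line at 1) in each of the 10 H3K27ac libraries, for LXRA 2 h (circles), LXRB 48 h (squares) and JunD (triangles). LXRA ratios are 1.001 and 0.819 in DMSO and 1.21 and 1.71 at 48 h of GW3965, and the JunD ratios are highest in the rosiglitazone libraries.

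Score changes at kept sites followed the same direction. Of 6944 kept sites with LXRA at 2 h, 1266 (18.2%) were at least 2-fold higher without overlap and 308 (4.44%) lower, beside 10.1% and 9.79% of all kept sites. For the 4912 sites with LXRB at 48 h these were 652 (13.3%) and 372 (7.57%). The median scaled log2 difference was 0.32 with and -0.26 without LXRA at 2 h, and 0.12 with and -0.09 without LXRB at 48 h. The scaling gave the libraries the same distribution over all kept sites, whose median difference was -0.02. The signs are thus relative to other kept sites, and a negative value does not show a fall in H3K27ac. Sites with PPARG peaks at 48 h of rosiglitazone, from cells that got no GW3965, had 19.3% higher and 3.93% lower. Those with PPARG at 2 h had 18.55% and 4.67%, and those with JunD, measured in DMSO, 13.0% and 4.78%. The median scaled log2 difference was 0.22 with and -0.10 without JunD. Sites with RNAP2 in DMSO went the other way, with 9.04% higher and 10.4% lower. A shift toward higher scores was thus not particular to sites of LXRA and LXRB. The sites of the different factors overlap, and their shares were not separated.

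Seen from the receptor sites, H3K27ac was more often called with GW3965 than in DMSO at LXRA 2 h sites. At LXRB 48 h sites GW3965 replicate 2 barely exceeded DMSO replicate 2. The margins shrank once peak numbers were made equal. Of LXRB 48 h sites, 65.1% and 73.5% had an H3K27ac peak in DMSO and 76.5% and 73.8% with GW3965. With 23015 peaks taken from each library these were 65.1% and 68.2% against 68.3% and 69.2%. At that number the rosiglitazone libraries had 71.2% to 74.3% and the 24 h GW3965 libraries 68.8% and 62.9%. At LXRB sites both GW3965 libraries thus lay barely above DMSO replicate 2, and a higher share was not particular to GW3965. Of LXRA 2 h sites, 49.1% and 55.5% had a peak in DMSO and 64.8% and 65.3% with GW3965, and 49.1% and 48.8% against 54.2% and 59.7% at equal peak number. There the rosiglitazone libraries had 51.3% to 56.0% and the 24 h GW3965 libraries 47.6% and 57.4%. By the presence rule, 1331 LXRA 2 h sites (7.24%) met a peak in both GW3965 libraries and in no DMSO library, 46 (0.250%) the opposite and 4739 (25.8%) had no H3K27ac in any of the 4. For LXRB at 48 h, 393 sites (4.26%) were of the first kind, 45 (0.488%) of the second and 1433 (15.5%) of the third.

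JunD, measured in DMSO only, coincided with a larger share of kept than of gained sites, while its share of lost sites depended on 1 library. JunD peaks found in both libraries (8960 sites) overlapped 21.7% of kept sites (21.1 to 22.4), 11.3% of gained sites (10.2 to 12.5) and 9.27% of lost sites (6.80 to 12.5). Without GW3965 replicate 2 it met 19.7% of kept, 7.91% of gained and 20.8% of lost sites, and without GW3965 replicate 1 it met 6.17% of lost sites. Unlike LXRA, JunD overlap hardly rose with the strength of the gained site, from 10.8% at lower scores under 150 to 12.9% at 300 or more. Of the 376 gained sites with LXRB at 48 h, 187 also had JunD. The score ratio of kept sites with and without JunD was 1.21 and 1.06 in DMSO, 1.18 and 1.74 at 48 h of GW3965 and 1.79 to 2.03 in the rosiglitazone libraries. The DMSO and GW3965 values overlapped.

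The strongest gained site with JunD was the chromosome 9 site with LXRB described above, with JunD at 184 and 297. At chr10:89916865-89919316 H3K27ac scored 700 and 573 with no RNAP2 peak in any library, at chr10:95234679-95236071 it scored 597 and 509, and at chr6:113952027-113954786 608 and 487. The chromosome 6 site was stronger after 48 h of rosiglitazone, at 1075 and 1039, and carried PPARG peaks in all 4 libraries, at 599 to 1713. Of the lost sites with JunD, chr7:1584940-1586563 led, with JunD at 867 and 862. At chr20:45901353-45904154 the DMSO H3K27ac scores were 157 and 206, at chr3:102072530-102075096 149 and 305, and at chr3:8670697-8672211 140 and 274. All 3 had peaks in 3 or more of the 4 rosiglitazone libraries, at 181 to 619. RNAP2 at chr3:8670697-8672211 scored 580 and 880 in DMSO and 312 and 202 at 48 h of GW3965, groups of unscaled scores that did not overlap.

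RNAP2 was less often found at lost sites after GW3965. Of the 399 lost sites, 44.6% and 47.6% had an RNAP2 peak in the DMSO libraries, 22.3% and 17.5% at 48 h and 19.5% and 21.1% at 24 h. The 2 DMSO values lay above the 4 GW3965 values. Kept sites changed far less, from 82.1% and 87.3% in DMSO to 82.8% and 81.5% at 48 h. The rosiglitazone libraries lay between, at 36.1% and 34.8% after 24 h and 28.6% and 29.3% after 48 h. With the same number of highest-scoring RNAP2 peaks in every library the lost sites had 39.8% and 36.1% in DMSO, 18.3% and 16.3% at 48 h, and 19.5% and 21.1% at 24 h. A fall was not particular to lost sites. Peaks in both RNAP2 libraries went from 24.1% in DMSO to 9.60% at 48 h at sites of DMSO replicate 2 alone. At sites of GW3965 replicate 2 alone, which had no H3K27ac peak in DMSO, they went from 25.7% to 14.2%. At sites of GW3965 replicate 1 alone they went from 14.6% to 10.4%. Both RNAP2 libraries of a condition use the input of the H3K27ac libraries of that condition, and the 24 h libraries use a separate one. The part of the input was not tested. The contrast also rested on GW3965 H3K27ac replicate 1: peaks in both RNAP2 libraries were found at 39.8% of lost sites in DMSO and 16.8% at 48 h, but at 51.0% and 43.6% when lost sites were formed without that replicate, and at 50.1% and 21.1% without GW3965 replicate 2.

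RNAP2 was not more often found at gained sites after GW3965. Of the 3029 gained sites, 31.6% and 32.7% had an RNAP2 peak in DMSO and 27.1% and 30.3% at 48 h. At 24 h the replicates gave 45.6% and 21.7%, which enclose the DMSO values. Stronger gained sites showed more RNAP2 at 48 h: peaks in both libraries were found at 17.2% of sites with a lower score under 150, 25.1% from 150 to 200, 33.3% from 200 to 300 and 41.8% at 300 or more. For RNAP2 in DMSO these shares were 24.4%, 27.7%, 29.8% and 32.8%, so the order of DMSO and GW3965 turned over between the weaker and the stronger gained sites. RNAP2 in both 48 h libraries and in no DMSO library was found at 99 gained sites (3.27%), 286 kept sites (1.75%) and 4 lost sites. RNAP2 in both DMSO libraries and in neither 48 h library was found at 174 (5.74%), 710 (4.34%) and 85 (21.3%).

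**Figure D5:**
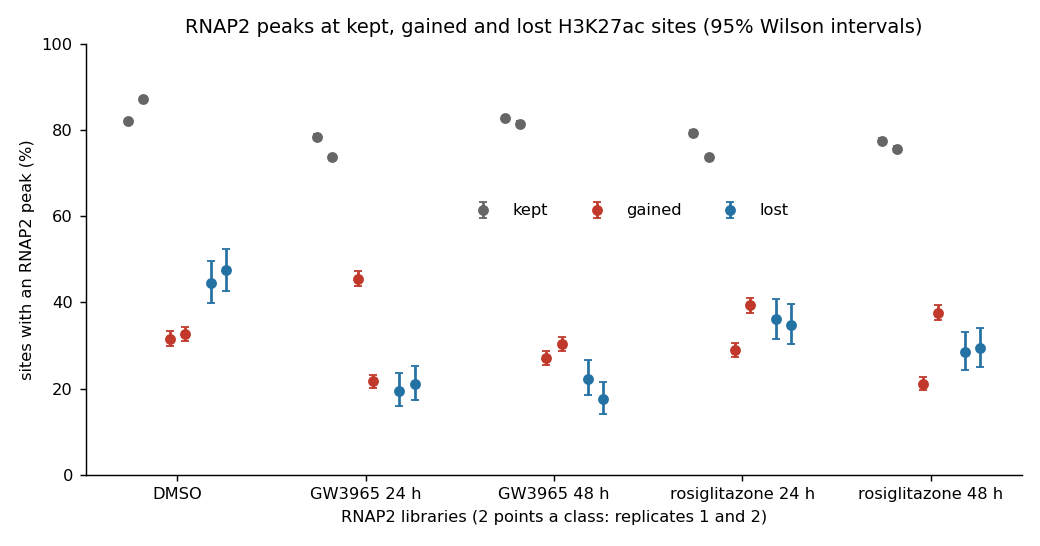
Share of kept (grey), gained (red) and lost (blue) H3K27ac sites with an RNAP2 peak (vertical axis, percent) in each of 10 RNAP2 libraries, 2 replicates per condition, with 95% Wilson intervals. At lost sites the DMSO libraries are at 44.6% and 47.6% and the 4 GW3965 libraries between 17.5% and 22.3%, while the gained sites show no such order.

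RNAP2 scores were tested across sites in the same way as H3K27ac scores. Over the 18590 RNAP2 sites with a peak in both DMSO and both 48 h GW3965 libraries, limma called 2269 higher (12.2%) and 2459 lower (13.2%) at an adjusted p under 0.05. Leaving out 1 library gave between 22 and 8034 calls, and scores without scaling gave 0 calls (2390 higher and 2484 lower at an unadjusted p under 0.05). Among the 62 lost H3K27ac sites with such an RNAP2 site, 23 carried a lower and 2 a higher one. That is 37.1% and 3.23% of those H3K27ac sites, beside 13.2% and 12.2% of all RNAP2 sites. The units differ, since 1 H3K27ac site can hold several RNAP2 sites. The median log2 RNAP2 difference was -0.43 at those lost sites, beside 0.04 over all RNAP2 sites tested. Of 530 gained sites, 53 (10.0%) carried a lower and 36 (6.79%) a higher RNAP2 site, with a median of -0.17. Kept H3K27ac sites, counted in the same unit as the lost ones, had 12.6% lower and 13.8% higher, near the shares of all RNAP2 sites. Where RNAP2 was higher, the 1613 kept H3K27ac sites had a median log2 difference of 0.05, and where it was lower, the 1474 kept sites had 0.06, beside -0.10 over all kept sites with a tested RNAP2 site. Over 11706 kept sites the H3K27ac and RNAP2 differences were barely correlated (Pearson -0.05, Spearman -0.07, across sites, with shared inputs). The sign differed between replicates, at 0.12 for GW3965 replicate 1 and -0.16 for GW3965 replicate 2.

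The 24 h GW3965 libraries were set beside the 48 h classes, with the DMSO libraries shared between the times. Of gained sites, 28.0% had a peak in 24 h replicate 1 and 65.6% in 24 h replicate 2, 19.2% in both and 25.7% in neither. Of lost sites, 66.9% and 19.8% still had a peak, 11.8% in both. The 24 h replicates were thus unlike: over the sites shared by all H3K27ac libraries their scores correlated at Spearman 0.48, below 0.77 for the replicates 1 and 0.65 for the replicates 2 of the 24 h and 48 h treatments. The rosiglitazone libraries had a peak at 32.0% to 46.1% of gained sites and 39.8% to 48.4% of lost sites. All 4 had one at 643 gained sites (21.2%) and none at 1222 (40.3%). Gained sites called in both 24 h GW3965 libraries and in no rosiglitazone library numbered 112 (3.70%), beside 6 lost sites and 109 kept sites (0.666%). At kept sites each of these 6 libraries had a peak at 93.0% to 96.6%.

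Many changed sites carried no factor peak that was found in both libraries of a condition. Peaks called in 1 library only were not counted. Changed sites were also narrower, with median widths of 1575 bp (gained) and 1445 bp (lost) against 2931 bp (kept). No peak of LXRA, LXRB, PPARG, JunD or RNAP2 found in both libraries of a condition met 40.4% of gained sites (38.7 to 42.2) and 48.4% of lost sites (43.5 to 53.3), against 8.13% of kept sites (7.72 to 8.56). LXRA, LXRB, PPARG or JunD alone met 52.5% of gained, 27.6% of lost and 61.1% of kept sites.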

How the data were processed

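ChIP-seq peak files of HT29 cells were analysed as the authors deposited them. The submitters' processing notes name Bowtie, MACS and hg19, without versions. Per the file headers, MACS was run on each library with its input. The deposited score of a peak is 10 times the negative log10 of its p-value, at least 100. Reads were not analysed here, so depth is unknown. The authors' deposited RNA counts served only for the marker check, with 8 columns of other treatments left out. Peaks outside chromosomes 1 to 22 and X (2 in all) were left out. Sites, Wilson intervals and exact permutation tests were computed in Python 3.11.15 with scipy 1.17.1. Site scores (highest per library) and covered widths were tested with limma 3.58.1 on quantile-scaled log2 values, trended, with Benjamini-Hochberg adjustment at 0.05, and checked on simulated data. Nothing states that replicates came from separate cultures, so p-values measure the spread between these libraries. Sites were named by highest lower score (6 gained, 6 lost, 4 of each with LXRB or JunD) or width (3), and site lists, members and comparisons were chosen with earlier results of these data known. No gene or sequence was tied to a site, since no hg19 genome was used here.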

Additional observations from a re-analysis of the deposited data

Results flagged for a closer look

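In the RNA marker check, the summed level of the hepatocyte markers ALB and APOA1 was 0 CPM in 1 DMSO library of 4, apart from the other 3. No RNA library exceeded 0.0603. Chance sets apart about 1 group in 20 in this way.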

How the results depend on the processing

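Counts of changed sites depended on the libraries and on how sites were counted. Counting sites reproducible in each group separately gave 5887 gained and 3055 lost, equal peak numbers gave 1646 and 1046, and a score of at least 200 gave 239 lost. Leaving out 1 library gave 3593 to 6433 gained and 589 to 2820 lost sites, and 0 to 3703 called score changes, 0 width changes and 22 to 8034 RNAP2 changes. Without scaling RNAP2 gave 0. The fit with the replicate number as a block called 0 score changes, 0 width changes and 4825 RNAP2 changes. Same-numbered H3K27ac libraries deviated in opposite directions (correlation -0.42 for score), and a block with crossed numbers, chosen after seeing the data, called 2075 score, 60 width and 6453 RNAP2 changes. Annotation peaks of score 200 or more overlapped 4.52% (LXRB 48 h), 25.5% (LXRA 2 h) and 4.82% (JunD) of gained sites, and 19.8% (RNAP2 DMSO) and 8.77% (RNAP2 48 h) of lost sites. Requiring 50% of the annotation peak gave 36.1% for RNAP2 DMSO. Leaving out 1 H3K27ac library gave 8.38% to 15.3%, 29.5% to 43.8%, 7.91% to 13.3%, 26.5% to 51.0% and 10.7% to 43.6% for the same 5 shares. The excess of peaks with GW3965, 4282 a library, ranged from 1939 to 6625. The cause of these shifts was not tested. The RNA test near sites was not run.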
